A study of Macaca mulatta with 8 samples.

Results

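The cells described here are the 2239 of 25397 cells that the authors classed as endoTreg within the CD25high CD127low sort, 1301 taken on day 3 and 938 taken on day 20. They were chosen by the authors' deposited class and library name, and the 2 days were compared. The 3393 cells that the authors classed as Tconv in the same 2 libraries (2037 on day 3 and 1356 on day 20) are given beside them, since a shift of a whole library would appear in both classes.

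The series measured gene expression in single blood cells of rhesus macaques after adoptive transfer of regulatory T cells. Blood mononuclear cells of both days were frozen, thawed on 1 common date, enriched magnetically for CD4+ cells and sorted by flow cytometry into 4 populations, each of which gave 1 library a day by the 10x 3' method. The sort studied here took CD3+ CD4+ cells with high CD25 and low CD127, and the labels call it Endo on both days. The labels state no animal, dose or treatment for either library, nor whether both days come from the same animal, so a difference between the days cannot be told apart from a difference between the 2 samples.

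Regulatory T cells restrain immune responses, and the transcription factor FOXP3 defines them. They carry the high-affinity receptor for interleukin-2 (IL-2), whose alpha chain CD25 is encoded by IL2RA, and they depend on IL-2 made by other T cells. IL-2 acts through the transcription factor STAT5, which raises its own feedback inhibitor CISH, survival genes such as BCL2 and IL2RA itself.

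Each day is 1 library, so the days could not be tested against a spread between replicates. Levels are CPM, the usual scaling of counted RNA molecules (UMIs) to a common total, here of the UMIs summed over the cells of a class. A log2 ratio is that of day 20 over day 3 with 10 CPM added to each level, which understates the ratio of low genes. Every interval in brackets is a 95% exact interval that covers counting error only. A gene is said to have risen or fallen where it was at least 2-fold apart on that scale and reached 50 CPM on 1 day. In summed counts, fewer cells with a transcript and less of it per cell cannot be told apart, so shares of cells with a UMI were also taken after thinning each cell to 1000 UMIs.

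The endoTreg class gave 4413771 UMIs on day 3 and 2665517 on day 20, with medians of 3216 and 2551 UMIs per cell. The Tconv class gave 6349222 and 3784018 UMIs, with medians of 3032 and 2749.5. The 2 libraries shared 9 cell barcodes, of which 2 lay in the endoTreg class on both days. HBB, a red cell transcript, stood at 2327 CPM in Tconv and 38.7 CPM in endoTreg cells on day 3 and was at or under 0.375 CPM in both classes on day 20. Not all red cell markers were lost with it. Their sum went from 202 to 128 CPM in endoTreg cells and from 2516 to 152 CPM in Tconv cells. On day 3, 1 Tconv cell held 5512 HBB UMIs of the class, and a UMI was found in 224 of 2037 Tconv and 158 of 1301 endoTreg cells, where no cell held more than 3. The summed B cell markers went from 271 to 234 CPM in endoTreg cells and from 42.1 to 31.7 CPM in Tconv cells, with 1 of 9 markers at 0 on each day in the endoTreg class. In the endoTreg class 191 and 107 cells carried 3 or more UMIs of platelet, monocyte, red cell or B cell markers, or more than 2 times their library's median total.

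The class carried regulatory T cell transcripts on both days. FOXP3 had 160 CPM (149 to 172) on day 3 and 140 CPM (126 to 155) on day 20, while Tconv cells had 17.5 and 16.9 CPM. CTLA4, an inhibitory receptor of regulatory T cells, was at 83.4 and 88.2 CPM, and TNFRSF18, the receptor GITR, at 120 and 130 CPM. These genes were therefore under 2-fold apart between the days. LRRC32 and IKZF2, also regulatory T cell markers, were low, at or under 4.53 and 9.74 CPM on either day. CD8A, which marks CD8 T cells, was at 0 on both days.

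The make-up of the class differed between the days. The endoTreg class held 38.9% of the library's cells (37.2 to 40.5) on day 3 and 40.0% (38.0 to 42.1) on day 20. Within it, the authors' finer name for endogenous effector Tregs covered 461 cells or 35.4% (32.8 to 38.1) on day 3 and 444 cells or 47.3% (44.1 to 50.6) on day 20. Endogenous naive Tregs covered 798 cells or 61.3% (58.6 to 64.0) and 412 cells or 43.9% (40.7 to 47.2). Names for transferred Tregs stood on 29 cells or 2.23% (1.5 to 3.19) of the class on day 3 and on 72 cells or 7.68% (6.05 to 9.57) on day 20, mostly transferred_Naive_Tregs with 13 and 64 cells. In the authors' clustering, cluster 4 held most of the class on day 3 (731 cells, against 570 in cluster 3) and cluster 3 most of it on day 20 (535 cells, against 403). The make-up of the Tconv class differed too. Its cluster 7 held 60.8% of the cells on day 3 and 45.7% on day 20, and its cluster 8 held 8.59% and 21.6%. Counts with Tconv clusters weighted equally are given further below. The classes and names were made by the authors from these same cells by a method not given in the sources used here. Values are therefore also given within each finer name.

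**Figure D1:**
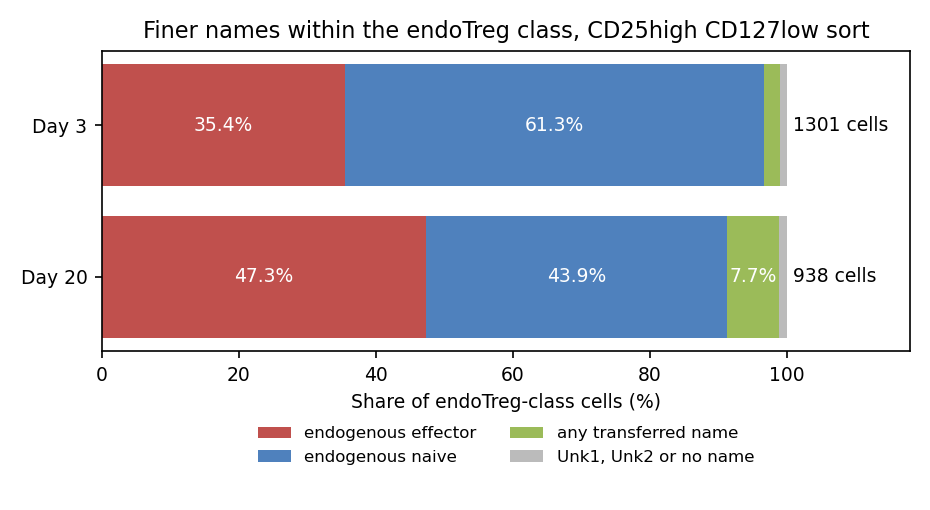
Shares of the authors' finer names among the endoTreg-class cells of the CD25high CD127low libraries, in percent on the horizontal axis, with 1 bar for each day and the number of cells at its end. The effector share is 35.4% on day 3 and 47.3% on day 20, and the naive share 61.3% and 43.9%.

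In the endoTreg class 48 of 1971 genes tested (2.44%) were higher on day 20 and 9 (0.457%) were lower. The 9 lower genes were all named and were, in order of size, CISH, MYB, ID2, LPAR6, BCL2, SLC50A1, AIRE, CMTM6 and UBALD2. Of the 48 higher genes, 35 have no symbol, 2 carry symbols of ribosomal proteins and 11 are other named genes. The Tconv class of the same libraries had 43 of 1792 genes (2.4%) higher and 2 (0.112%) lower. All 48 higher genes of the endoTreg class were also above 0 on the log2 scale in Tconv cells, 30 of them by at least 2-fold. None of the 9 lower genes was 2-fold lower in Tconv cells on the log2 scale with 10 CPM added, although all 9 lay below 0 there. In CPM alone, MYB and AIRE were over 2-fold lower in Tconv cells too. With TMM factors, another scaling of the totals, 22 genes were higher and 14 lower, so that 61.1% of the calls were higher against 84.2% without it. With median-of-ratios factors the share was 65.7%. TMM factors moved the median of all genes by -0.14.

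Counting only genes that moved at least 2-fold further in endoTreg than in Tconv cells left 2 higher (0.101%) and 3 lower (0.152%) genes. The higher ones were CGA and ZFP36L2, and the lower ones CISH, MYB and LPAR6. The same 5 genes met that rule with TMM or median-of-ratios factors, with scaling on named genes and without the cells that had foreign markers or high totals. MYB missed it where the Tconv clusters were weighted equally and with a limit of 100 CPM, and ZFP36L2 missed it with 30 CPM added.

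**Figure D2:**
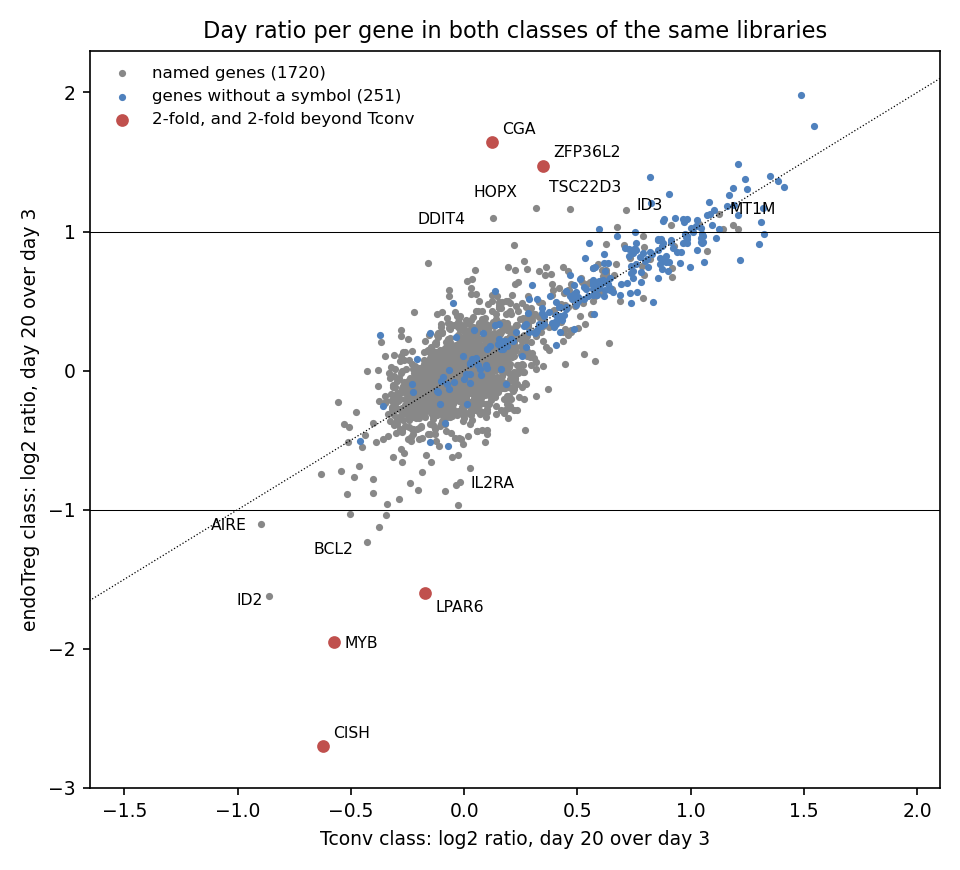
Each point is 1 of the 1971 genes tested, placed by its log2 ratio of day 20 over day 3 in the Tconv class (horizontal axis) and in the endoTreg class (vertical axis) of the same libraries. Horizontal lines mark 2-fold in endoTreg cells and the dotted line equal ratios. Genes without a symbol (blue) extend along the dotted line, while CISH, MYB and LPAR6 lie below it and CGA and ZFP36L2 above it (red).

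Among genes of the IL-2 and STAT5 response, CISH and BCL2 fell, IL2RA, SOCS1 and CCND2 were lower on day 20 by less than the 2-fold rule asks, and IL2RB was higher by less than that. CISH, which encodes a feedback inhibitor of cytokine receptors, had 1330 UMIs or 301 CPM (285 to 318) on day 3 and 101 UMIs or 37.9 CPM (30.9 to 46.0) on day 20. It thus fell by 2.70 on the log2 scale, and its CPM on day 3 was 7.95 times (6.49 to 9.83) that on day 20. In Tconv cells CISH stood at 141 and 88.3 CPM, a log2 ratio of -0.62. The endoTreg class was above the Tconv class on day 3 and below it on day 20. At 1000 UMIs per cell, 25.1% of endoTreg cells had a CISH UMI on day 3 and 4.37% on day 20, against 13.3% and 8.11% of Tconv cells. Without thinning the endoTreg shares were 58.9% and 9.17%.

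The fall of CISH had a like size in both finer names. Endogenous effector Tregs went from 363 to 44.2 CPM, a log2 ratio of -2.78, and endogenous naive Tregs from 259 to 29.7 CPM, a log2 ratio of -2.76. The endoTreg class of the separately sorted CD127-positive CD25-positive libraries (272 and 293 cells) had 245 CPM (213 to 279) on day 3 and 74.6 CPM (55.6 to 98.1) on day 20, a log2 ratio of -1.59. In the Tconv class of the CD127-positive CD25-positive sort the ratio was 0.07, and in that of the CD127-positive CD25-negative sort it was 0.40. The transTreg class of the CFSE-positive libraries, which hold the dye-labelled cells, had 382 CPM on day 3 and 20.8 CPM on day 20.

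BCL2, which protects cells from apoptosis, had 245 CPM (230 to 260) on day 3 and 98.7 CPM (87.1 to 111) on day 20 and fell by 1.23 on the log2 scale. Tconv cells had 201 and 147 CPM, a log2 ratio of -0.43. Within effector and naive Tregs the BCL2 ratios were -1.33 and -0.98, the latter just under 2-fold, and in endoTreg cells of the CD127-positive CD25-positive sort it was -1.29.

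IL2RA stayed under the 2-fold rule, at 597 CPM (574 to 620.0) on day 3 and 338 CPM (316 to 361) on day 20, a log2 ratio of -0.80. Tconv cells had 122 and 121 CPM, with overlapping intervals. The share of endoTreg cells with an IL2RA UMI at 1000 UMIs was 41.0% on day 3 and 29.6% on day 20. The sort gated on CD25, the protein of this gene, and the part of the gate in this value was not tested. SOCS1, another feedback inhibitor of cytokine signals, had 65.9 and 31.1 CPM (log2 ratio -0.88), and CCND2, cyclin D2, had 80.9 and 36.8 CPM (-0.96). A CCND2 UMI was found at 1000 UMIs in 5.76% and 3.30% of endoTreg cells and 2.45% and 1.99% of Tconv cells. The CCND2 shares were 11.5% and 5.18% in effector Tregs and 2.51% and 1.21% in naive Tregs. IL2RB, the beta chain of the receptor, had 61.4 CPM (54.3 to 69.2) and 94.5 CPM (83.2 to 107), a ratio of 0.55 in the other direction.

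Over the whole list of IL-2 and STAT5 response genes, 10 of 16 reached 20 CPM on 1 day. Of these, 2 (CISH and BCL2) were 2-fold lower and none 2-fold higher, against 0.358% lower and 1.54% higher of all 3906 genes at 20 CPM. At 1.5-fold, 6 of the 10 were lower and 0 higher, against 1.38% lower and 7.42% higher of all genes. The list and its members were chosen with earlier results of these data known, so these shares are not independent support. The median log2 ratio of the 10 was -0.74 in endoTreg and -0.15 in Tconv cells, beside 0.03 over all genes in endoTreg cells. It was -1.15 in effector Tregs, -0.26 in naive Tregs and -0.41 in endoTreg cells of the CD127-positive CD25-positive sort. Over 12 settings of scaling, added CPM, filter, depth and cell choice, the endoTreg median lay between -0.94 and -0.50. The filter settings cannot change such a median, since its members were fixed at 20 CPM.

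**Figure D3:**
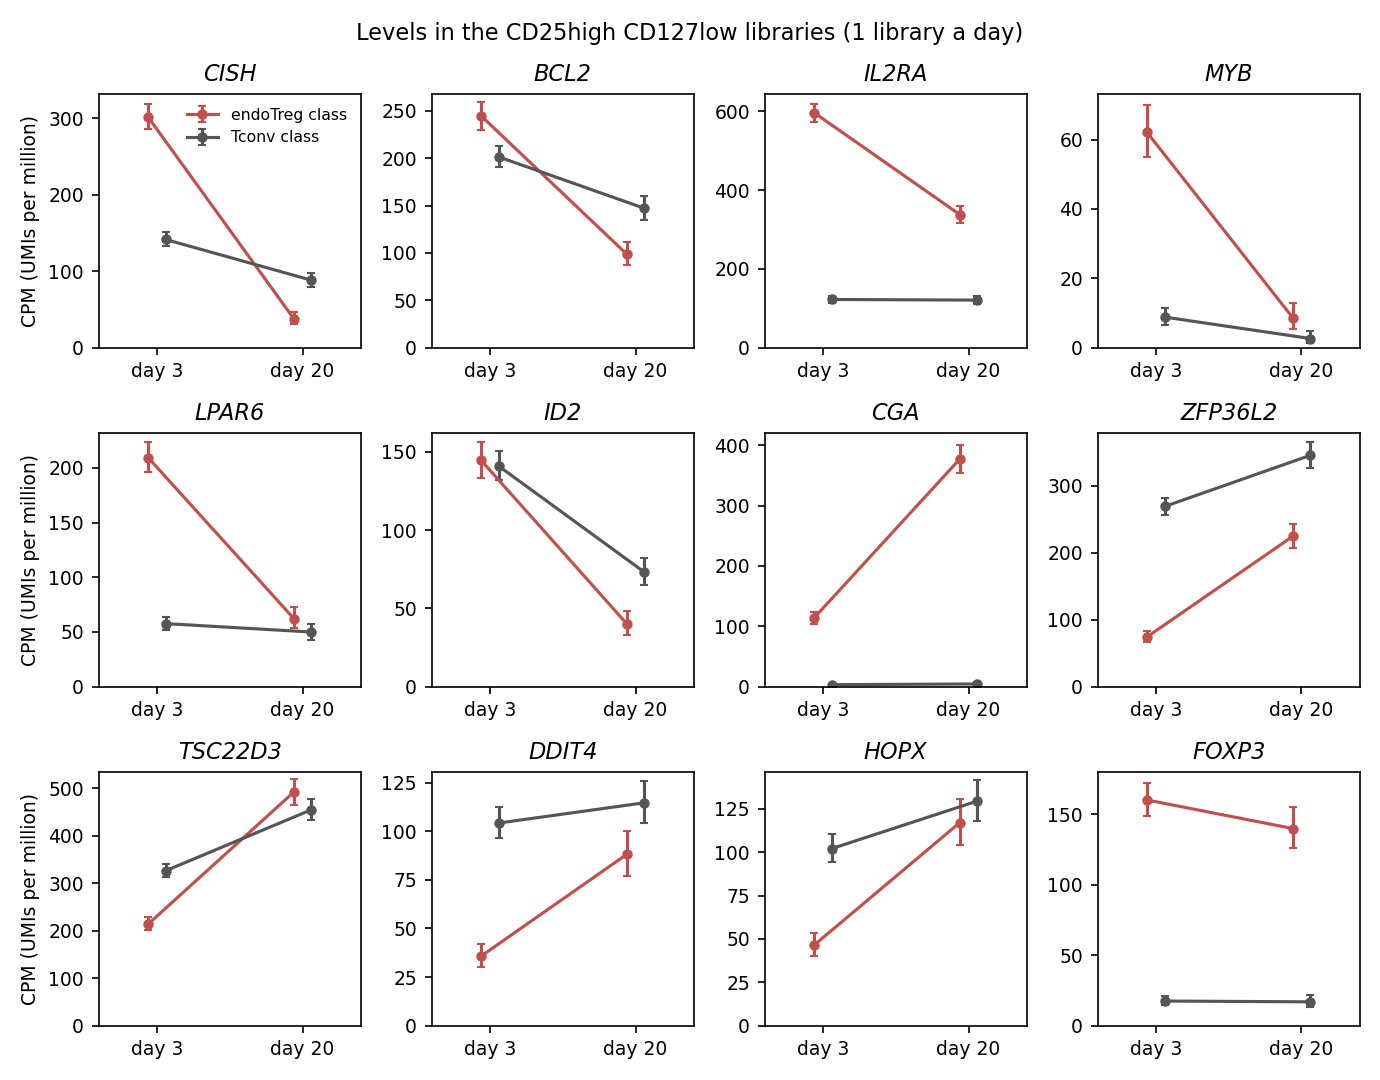
CPM of 12 genes on day 3 and day 20 in the endoTreg (red) and Tconv (grey) classes of the CD25high CD127low libraries, with 95% exact Poisson intervals for counting error and each vertical axis starting at 0. CISH falls from 301 to 37.9 CPM in endoTreg cells and crosses the Tconv level, while FOXP3 lies at 160 and 140 CPM, far above Tconv on both days.

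Of the transcription factors among the lower genes, MYB, ID2 and AIRE, MYB moved furthest from the Tconv class. MYB, a factor of progenitors and of differentiating lymphocytes, had 274 UMIs or 62.1 CPM (54.9 to 69.9) on day 3 and 23 UMIs or 8.63 CPM (5.47 to 12.9) on day 20, a log2 ratio of -1.95. Its Tconv levels were 8.82 and 2.64 CPM, so low that the 10 CPM added hides a fall of over 2-fold there. With 1 CPM added instead, MYB was still among the 3 lower genes beyond Tconv cells. Naive Tregs went from 73.9 to 6.12 CPM and effector Tregs from 45.1 to 11.2 CPM, so the naive cells had the higher MYB level on day 3 and the intervals overlapped on day 20. The CD127-positive CD25-positive sort's endoTreg cells had 50.2 and 8.78 CPM of MYB, a log2 ratio of -1.68.

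ID2, an inhibitor of E-protein transcription factors, had 145 CPM (134 to 156) on day 3 and 40.1 CPM (32.9 to 48.5) on day 20, a log2 ratio of -1.62. Tconv cells of the same libraries went from 141 to 73.2 CPM (-0.86), so part of the ID2 difference was shared by both classes. Its relative ID3 went the other way and rose from 26.7 CPM (22.1 to 32.0) to 71.7 CPM (61.9 to 82.6), a log2 ratio of 1.15 against 0.72 in Tconv cells. AIRE, best known for driving tissue antigens in the thymus, had 107 and 44.6 CPM (-1.10) in endoTreg and 36.7 and 15.1 CPM (-0.90) in Tconv cells. The AIRE ratio was thus close in both classes, and it was -0.25 in endoTreg cells of the CD127-positive CD25-positive sort.

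LPAR6, a receptor for the lipid lysophosphatidic acid, had 209 CPM (196 to 223) on day 3 and 62.3 CPM (53.2 to 72.5) on day 20, a log2 ratio of -1.60. In Tconv cells it stood at 57.6 and 49.9 CPM, with overlapping intervals. At 1000 UMIs, 19.4% and 6.50% of endoTreg cells had an LPAR6 UMI. The ratio was -1.85 in effector Tregs, -1.27 in naive Tregs and -1.47 in endoTreg cells of the CD127-positive CD25-positive sort.

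The 3 remaining lower genes lay close to the 2-fold limit. SLC50A1, a sugar transporter, had 147 and 61.9 CPM (-1.12), CMTM6, a membrane protein that stabilises PD-L1, had 190 and 87.0 CPM (-1.04), and UBALD2 had 114 and 50.6 CPM (-1.03). Their Tconv ratios were -0.37, -0.34 and -0.50. The 9 lower genes were chosen in the pooled class, which the 2 endogenous finer names mostly make up. Their counts within these names are therefore not independent of that choice. In effector Tregs all 9 lower genes were at least 2-fold lower, where 1.01% of all genes were lower and 3.17% higher. In naive Tregs 6 of the 9 were, all but BCL2, SLC50A1 and UBALD2, where 0.517% of all genes were lower and 3.33% higher. The endoTreg class of the CD127-positive CD25-positive sort had all 9 below 0 and 4 (CISH, MYB, LPAR6 and BCL2) at least 2-fold lower, where 1.7% of all genes were lower and 1.65% higher. Of the 48 higher genes, only 15 were above 0 in that class and 4 at least 2-fold higher. However, 35 of the 48 have no symbol. Genes without a symbol had a median of -0.47 in that class, beside 0.20 for all genes at 50 CPM. The count of 15 therefore says little on the named higher genes, whose ratios there are given with each gene. In Tconv cells of the CD127-positive CD25-positive and CD25-negative sorts, 14 and 4 of the 48 were above 0. Of the 9 lower genes, 5 and 3 were below 0 there.

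RGS1, which dampens chemokine receptor signals, came near the limit, with 259 CPM (244 to 274) on day 3 and 128 CPM (115 to 142) on day 20, a log2 ratio of -0.96. Tconv cells had 61.0 and 59.7 CPM. The RGS1 ratio was -1.55 in effector Tregs and -0.49 in naive Tregs, further from 0 in the effector cells.

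CGA rose furthest of the named genes. It encodes the alpha chain that pituitary and placental glycoprotein hormones share. In the endoTreg class it had 503 UMIs or 114 CPM (104 to 124) on day 3 and 1005 UMIs or 377 CPM (354 to 401) on day 20, a log2 ratio of 1.64. Tconv cells of the same libraries had 3.31 and 4.49 CPM, with overlapping intervals, so CGA was low there on both days. The share of endoTreg cells with a CGA UMI at 1000 UMIs was 6.92% and 18.8%, against 0.245% and 0.369% of Tconv cells.

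Nearly all CGA UMIs came from the endogenous effector Tregs, 480 of 503 on day 3 and 980 of 1005 on day 20. In these cells CGA had 289 CPM (263 to 316) on day 3 and 734 CPM (689 to 782) on day 20, a log2 ratio of 1.32. A CGA UMI was found in 29.3% of them on day 3 and 52.3% on day 20, or 18.0% and 36.9% at 1000 UMIs. The difference in CGA was thus present within the effector name, beside the larger effector share of day 20. Naive Tregs had 3.79 and 14.9 CPM. CGA in endoTreg cells of the CD127-positive CD25-positive sort had 91.6 CPM (72.8 to 114) and 442 CPM (393 to 495), a log2 ratio of 2.15.

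ZFP36L2, an RNA-binding protein that speeds mRNA decay, rose from 74.3 CPM (66.5 to 82.8) to 224 CPM (207 to 243), a log2 ratio of 1.47. Tconv cells had more of it on both days, 269 and 345 CPM (0.35). Its ratio was 1.29 in effector Tregs and 1.63 in naive Tregs, and 0.59 in endoTreg cells of the CD127-positive CD25-positive sort. At 1000 UMIs, 6.84% and 19.4% of endoTreg cells had a ZFP36L2 UMI.

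TSC22D3 and DDIT4, both known as glucocorticoid-responsive genes, also rose. TSC22D3, a leucine zipper protein that restrains T cell activation, had 214 CPM (200.5 to 228) on day 3 and 492 CPM (466 to 519) on day 20, a log2 ratio of 1.16, while Tconv cells had 326 and 455 CPM (0.47). The TSC22D3 ratio was 1.17 in effector and 1.18 in naive Tregs. DDIT4, an inhibitor of the growth kinase complex mTORC1, had 35.8 CPM (30.4 to 41.8) and 88.2 CPM (77.2 to 100.3), a log2 ratio of 1.10. Tconv cells had 104 and 115 CPM of DDIT4, with overlapping intervals. TSC22D3 was 2-fold apart in 12 of 12 settings, of which the filter settings could not change its ratio. DDIT4 was under 2-fold with TMM factors (0.95), median-of-ratios factors (0.97) and 30 CPM added (0.84). In endoTreg cells of the CD127-positive CD25-positive sort the ratios were 0.90 for TSC22D3 and 1.10 for DDIT4.

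HOPX, a small homeodomain protein of effector and memory T cells, rose from 46.4 CPM (40.3 to 53.3) to 117 CPM (104 to 131), a log2 ratio of 1.17 against 0.32 in Tconv cells. Effector Tregs had 104 and 209 CPM of HOPX (0.94) and naive Tregs 9.09 and 12.2 CPM (0.22), both under 2-fold on the log2 scale with 10 CPM added. The effector share of the whole class was 35.4% and 47.3%, and its part in the HOPX call was not tested. With the finer names weighted equally the HOPX ratio was 0.86. In endoTreg cells of the CD127-positive CD25-positive sort the HOPX ratio was 1.74.

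The other 5 named higher genes had ratios in Tconv cells that lay within 0.36 of those in endoTreg cells. MT1M, a metallothionein that binds zinc and copper, had 48.3 and 117 CPM in endoTreg cells (1.12) and 51.3 and 124 CPM in Tconv cells (1.13). The ratios in endoTreg and Tconv cells were 1.05 and 0.91 for PFDN5, a prefoldin chaperone subunit, 1.04 and 1.19 for MBD3, a subunit of a chromatin remodeller, and 1.02 and 1.14 for PCBP1, an RNA-binding protein. CD48, an adhesion molecule of lymphocytes, had 1.03 and 0.68. In endoTreg cells of the CD127-positive CD25-positive sort MT1M lay at -0.49, and the other 4 were under 2-fold.

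**Figure D4:**
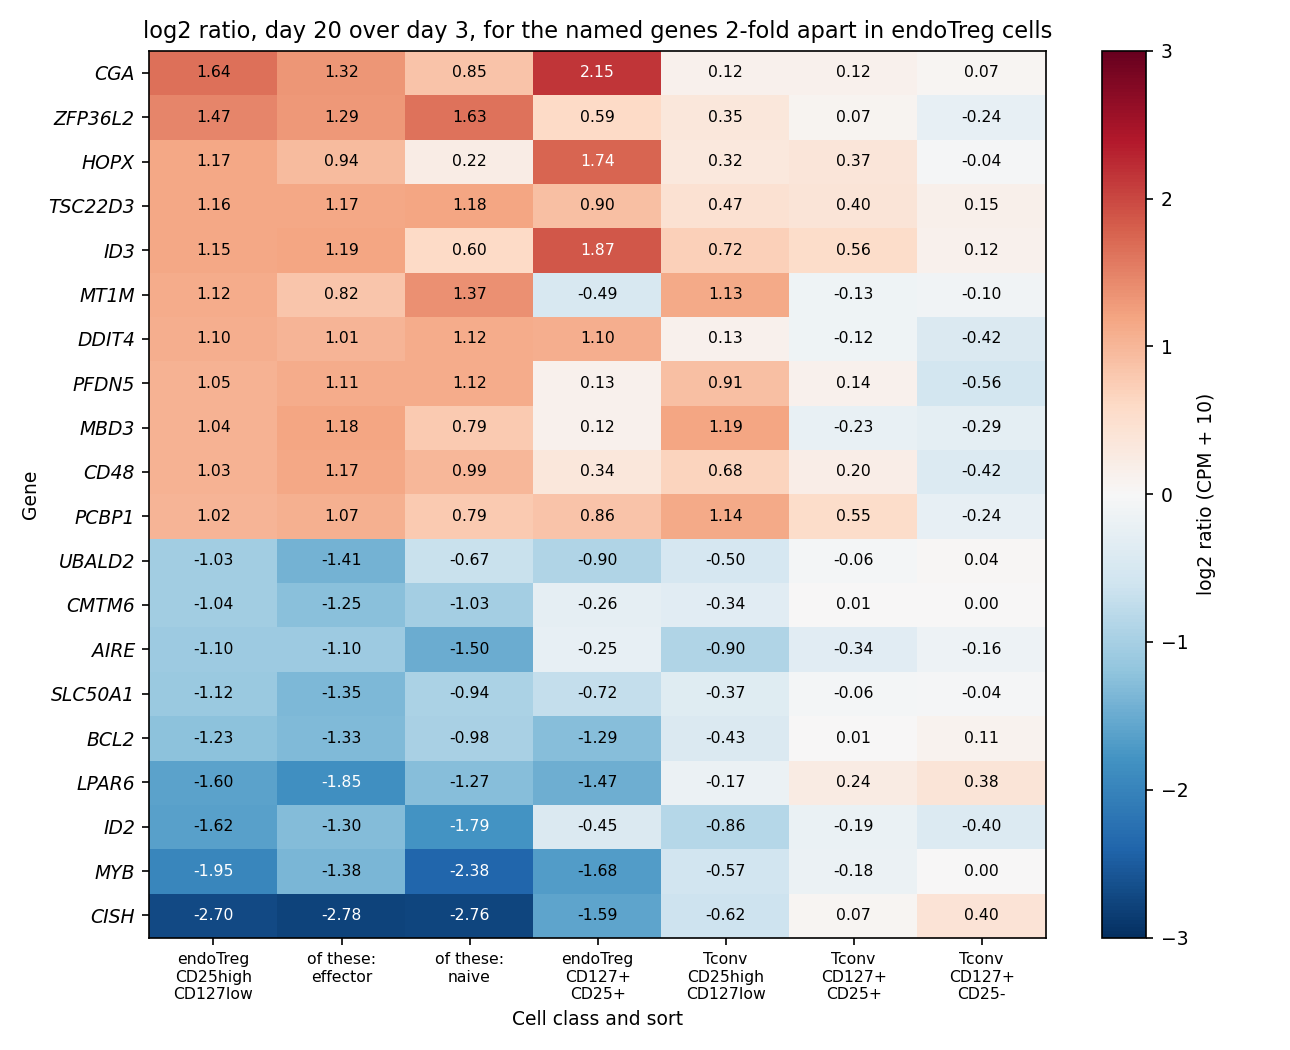
Log2 ratios of day 20 over day 3 for the 20 named genes that rose or fell in the endoTreg class, without ribosomal protein symbols, with genes in rows and cell classes by sort in columns. CISH, MYB, LPAR6 and BCL2 are blue in all 4 endoTreg columns, and MT1M, PFDN5 and MBD3 have like ratios in both classes of the CD25high CD127low libraries.

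Most of the higher genes have no symbol, and such genes were higher on day 20 in both classes of the CD25high CD127low libraries. Of 251 such genes at 50 CPM, 229 lay above 0 in endoTreg cells, beside 1015 of all 1971 genes at 50 CPM. The median log2 ratio of the 251 was 0.62 in endoTreg cells and 0.59 in Tconv cells of the same libraries. Their share of all UMIs went from 11.6% to 14.5% in endoTreg and from 12.4% to 15.4% in Tconv cells. The transTreg class of the CFSE-positive libraries had a median of 0.65 for the same genes, and their share of its UMIs went from 10.7% to 14.5%. In both CD127-positive sorts the median had the opposite sign, -0.47 in endoTreg and -0.40 in Tconv cells of the CD127-positive CD25-positive libraries and -0.26 in Tconv cells of the CD127-positive CD25-negative libraries. The 2 ribosomal protein symbols among the higher genes were RPS20 and RPS29, whereas the median of 78 ribosomal protein symbols was 0.00.

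Treg core genes, the list of identity and receptor genes, had 0 of 10 measured members 2-fold apart in either direction. Of all 3906 genes at 20 CPM, 1.54% were 2-fold higher and 0.358% lower. A count of 0 in this list or the short lists below is therefore near what all genes would give. The Treg core median log2 ratio was -0.17 in endoTreg and -0.03 in Tconv cells. After IL2RA, the lowest ratio was that of TNFRSF1B, a tumour necrosis factor receptor, with 214 and 150 CPM (-0.49). Within naive Tregs FOXP3 had 110 CPM (98.0 to 124) and 64.7 CPM (50.8 to 81.2), with intervals that did not overlap, and within effector Tregs 235 CPM (212 to 260) and 203 CPM (180 to 229).

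Effector Treg genes, with 8 measured, also had none past 2-fold. ICOS, a costimulatory receptor, had 42.4 CPM (36.5 to 48.9) and 71.7 CPM (61.9 to 82.6), a log2 ratio of 0.64 against 0.01 in Tconv cells. The transcription factors PRDM1 and IRF4 had ratios of -0.57 and -0.75, with 128 and 83.3 CPM for PRDM1 and 34.0 and 16.1 CPM for IRF4. The list's median of 0.09 took the other sign under some settings, from -0.07 to 0.14, and within effector (-0.02) and naive (-0.01) Tregs.

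Naive and memory genes held no 2-fold member either, among 13 and 20 measured. IL7R, which encodes CD127 and was gated on as protein, had 145 and 216 CPM (0.54), and S100A4, a calcium-binding protein of memory cells, had a ratio of 0.29 in the pooled class. Within the finer names the S100A4 ratio was -0.07 in effector and -0.72 in naive Tregs, and it was -0.12 with these names weighted equally. The median ratio was 0.16 for the naive list and 0.10 for the memory list in endoTreg cells, and 0.11 and 0.06 in Tconv cells. The memory list's median was below 0 within each finer name, -0.12 in effector and -0.14 in naive Tregs, opposite in sign to the pooled class, whose effector share was 35.4% and 47.3%. It lay between -0.11 and 0.14 over the settings.

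For the interferon response, 16 of 19 measured members lay above 0, beside 2197 of all 3906 genes at 20 CPM. None of the 19 was 2-fold apart. The median was 0.25 in endoTreg and 0.22 in Tconv cells, and IFI6, an interferon-induced mitochondrial protein, had 137 and 248 CPM in endoTreg cells (0.81) and a ratio of 0.73 in Tconv cells. The list median and the IFI6 ratio were thus much alike in both classes. IFI27 of the same list was not, with a log2 ratio 0.93 higher in endoTreg cells, as described further below.

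Members of the proliferation list lay below 0 in 6 of 6 measured cases in the endoTreg class, beside 1709 of all 3906 genes at 20 CPM. The list's median was -0.31 against 0.05 in Tconv cells. None passed 2-fold. STMN1, a microtubule regulator of dividing cells, was the lowest, with 288 and 154 CPM (-0.86) against -0.09 in Tconv cells. Heat shock genes had a median of -0.35 in endoTreg and -0.04 in Tconv cells, with HSPA8, a constitutive chaperone, at 1218 and 868 CPM (-0.48), and 0 of 10 were 2-fold apart. Both medians stayed below 0 over the 12 settings, of which the filter settings could not change them. They were above 0 in endoTreg cells of the CD127-positive CD25-positive sort, at 0.28 for proliferation and 0.05 for heat shock. All genes at 20 CPM had a median of 0.19 there.

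T cell receptor signalling genes had a median of 0.24 in endoTreg and 0.03 in Tconv cells. Of the 10 measured, 9 had a higher ratio in endoTreg than in Tconv cells, beside 1937 of all 3906 genes at 20 CPM. LAT, the adaptor below the receptor, had 67.7 and 85.9 CPM (0.30). CD3D, a chain of the receptor complex, had 1941 and 1512 CPM (-0.36). The immediate early and NF-kB list, with 7 measured, had ZFP36L2 as its only 2-fold member, and NFKBIA, the NF-kB inhibitor, at 0.58 against -0.07 in Tconv cells. RGS1 of the same list was at -0.96. In all, 3 members lay above and 4 below 0, and the list's median was -0.002 in endoTreg and -0.03 in Tconv cells.

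**Figure D5:**
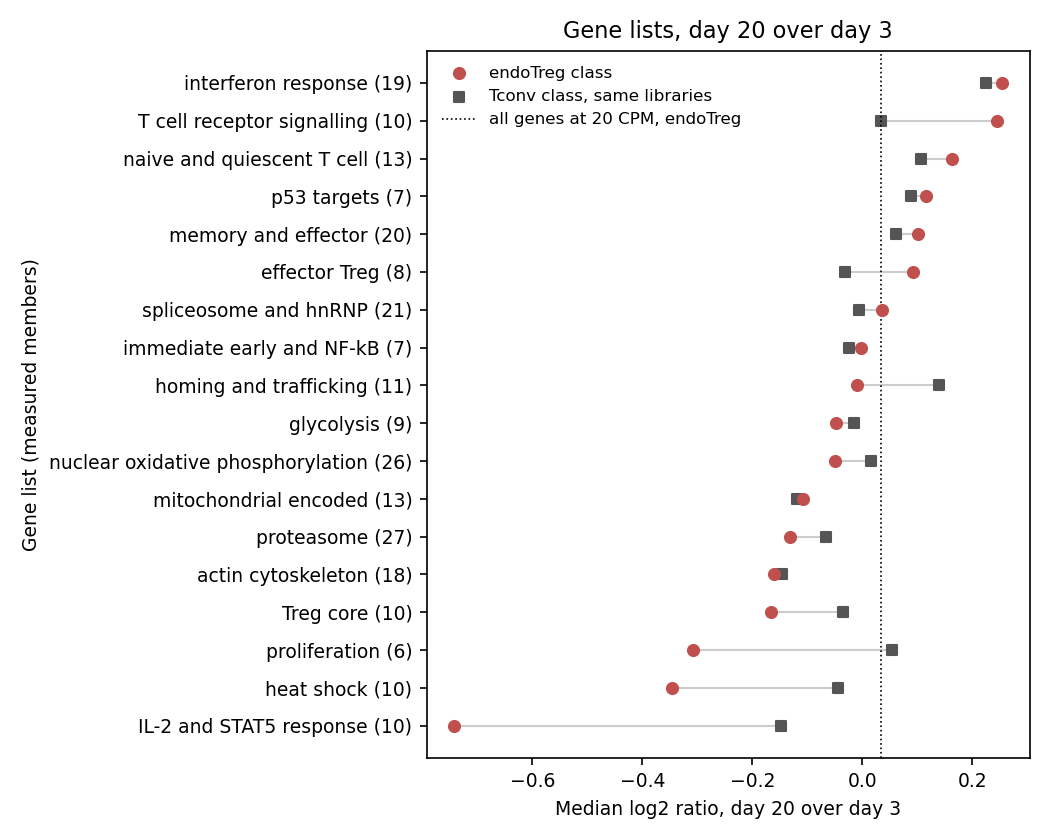
Median log2 ratio of day 20 over day 3 for the lists with at least 3 measured members, whose number stands in brackets, in the endoTreg class (red circles) and the Tconv class (grey squares) of the same libraries. The dotted line marks the median of all genes at 20 CPM in endoTreg cells, and the IL-2 and STAT5 list lies furthest from it, at -0.74 against -0.15 in Tconv cells.

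The remaining lists had few members past 2-fold. In homing and trafficking, CCR9, a gut-homing receptor, was the 1 of 11 measured members past 2-fold, with 21.5 CPM (17.4 to 26.3) and 2.63 CPM (1.06 to 5.41), under the 50 CPM of the calling rule, while GPR183, an oxysterol receptor, had 104 and 179 CPM (0.73). Glycolysis, nuclear oxidative phosphorylation, mitochondrial encoded genes, actin cytoskeleton, proteasome, spliceosome and p53 targets had 0 members 2-fold apart and medians between -0.16 and 0.12. Of co-inhibitory receptors, CTLA4 and TOX were measured, and of MHC class II genes HLA-DPA1, none 2-fold apart. Of the metallothioneins MT1M alone was measured.

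Among cytotoxic genes, GZMA, which encodes granzyme A, had 8 UMIs or 1.81 CPM (0.783 to 3.57) on day 3 and 124 UMIs or 46.5 CPM (38.7 to 55.5) on day 20. It thus stayed just under the 50 CPM limit. On day 20 these UMIs lay in 27 cells, with up to 16 UMIs in 1 cell, against 5 cells on day 3. Effector Tregs held 121 of the 124 UMIs of GZMA, with 4.21 CPM (1.69 to 8.67) on day 3 and 90.7 CPM (75.2 to 108) on day 20. In endoTreg cells of the CD127-positive CD25-positive sort GZMA had 8.93 CPM (3.86 to 17.6) and 87.8 CPM (67.0 to 113), and in Tconv cells of the CD25high CD127low libraries 1.26 and 4.49 CPM. Without the cells that had foreign markers or high totals the log2 ratio of GZMA was 1.29, against 2.26 with all cells. Of the 6 cytotoxic genes measured, 3 lay above and 3 below 0. NKG7, a granule protein, had 24.0 and 12.4 CPM (-0.60), GZMM, granzyme M, had 20.8 and 10.5 CPM (-0.59), and CST7, a protease inhibitor of granules, had 25.4 and 44.3 CPM (0.62). The list's median was 0.15 with all cells, -0.06 without the cells that had foreign markers or high totals, -0.23 in effector and -0.11 in naive Tregs. The cytotoxic list as a whole summed to 133 and 182 CPM in endoTreg cells and 123 and 183 CPM in Tconv cells, with 3 of its 10 genes in the table at 0 in endoTreg cells on day 3 and 2 on day 20.

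Cells under names for transferred Tregs were 2.23% and 7.68% of the class, so the counts were repeated with the 2 endogenous finer names alone, a choice made after seeing the data. They were then 47 higher and 9 lower, of which 3 and 3 went beyond Tconv cells. Without the cells that had foreign markers or high totals they were 58 higher and 10 lower.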

How the data were processed

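Values are whole UMI counts per gene and cell, which the authors deposited with each cell's library, class, cluster and finer name. Libraries used 10x 3' version 2 chemistry, per the labels' protocols, and the submitters' processing notes list Cell Ranger 2.1.1. The sources used here do not give the build, annotation, cell filters or classing method. Of 16429 genes, 3226 had no symbol after 283 were named from a reference table.

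Counts were summed per class and library and scaled to CPM (Python 3.11.15, scipy 1.17.1). With 1 library a group no test was run. Intervals are exact Poisson, exact conditional (ratios of CPM) and Clopper-Pearson (shares), and reflect only counting error. No cell was left out and no doublet caller was run. The steps were tested on simulated data.

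The text names the called genes with symbols, up to 15 per direction by log2 ratio, up to 8 by the difference from Tconv and 8 that moved most in Tconv cells, without ribosomal and mitochondrial genes, plus examples from 21 gene lists and 12 marker lists. RPS20, RPS29 and the details given for RGS1, CCR9 and the cytotoxic genes were chosen after their values were seen. Of the genes the rule allows, 2 are not reported here. Members and lists were chosen with earlier results of these data known. The alternatives were TMM factors (edgeR 4.0.16) and median-of-ratios factors (DESeq2 1.42.0), used for scaling only, scaling on named genes, 1 and 30 CPM added, no filter and 100 CPM, per-cell means, thinning, cell choice, weighting and other Tconv references.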

Additional observations from a re-analysis of the deposited data

Results flagged for a closer look

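In the 3 listed genes given here the day ratio had opposite directions in the endoTreg and Tconv classes of the same libraries, with each class's interval excluding a ratio of 1. With 1 library a day the difference between the classes was not tested, and none of the 3 was 2-fold apart between the days in either class.

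IFI27, an interferon-induced gene, went from 150 to 263 CPM in endoTreg cells and from 172 to 153 CPM in Tconv cells, which puts its log2 ratio 0.93 higher in endoTreg cells. Single cells held up to 34 and 42 of its UMIs in the endoTreg class, and without the cells with foreign markers or high totals its endoTreg log2 ratio was -0.10. ITGA4, the integrin alpha 4 chain, had 62.8 and 79.2 CPM in endoTreg cells and 76.2 and 61.0 CPM in Tconv cells, a difference of 0.57. TUBA1B, an alpha tubulin, had 348 and 272 CPM against 215 and 247 CPM, a difference of -0.54.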

How the results depend on the processing

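The counts of 48 higher and 9 lower genes, and of 2 and 3 beyond Tconv cells, moved by over 1.5 times as follows. TMM factors gave 22 higher and 14 lower genes, and median-of-ratios factors 23 higher. Adding 1 CPM gave 77 and 14, and adding 30 CPM gave 19 and 5, with 1 higher gene beyond Tconv. No filter gave 16 lower genes, with 4 and 6 beyond Tconv. Thinned cells gave 5 and 5 beyond Tconv, and equally weighted finer names 5 lower genes beyond Tconv. Against Tconv cells of the CD127-positive CD25-negative libraries 47 and 8 genes went beyond the reference, and against those of the CD127-positive CD25-positive libraries 40 and 7. With these references, and with Tconv clusters weighted equally (3 and 2), higher genes outnumbered the lower ones. CISH, BCL2, ID2, LPAR6, MYB, CGA, TSC22D3 and ZFP36L2 were 2-fold apart in each of 12 settings. The other 12 named genes that rose or fell were under 2-fold in at least 1 of them, and none of the 20 changed sign. The settings without a filter and with 100 CPM leave a gene's log2 ratio unchanged, so their agreement was fixed in advance. The depth allows no statement on genes of a few UMIs. No paired analysis was possible because each group is 1 library, and for the same reason no library could be left out.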
